A study of Homo sapiens with 60 samples.

Results

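HepG2 cells treated for 24 h with a water extract of licorice (Glycyrrhizae Radix) at 500 µg/mL were compared with HepG2 cells treated with a water extract of ginseng (Panax Ginseng) at the same dose. HepG2 is an established human liver tumour cell line that keeps many hepatocyte genes. The libraries were chosen by their sample labels, 3 for each extract, which makes 6 of the 60 libraries of the series. The matched pairs at 100 and 20 µg/mL, 6 libraries each, were used to follow the same difference at lower doses. The 3 vehicle libraries, labelled 0.1% DMSO, were set beside both extracts. The description of the series gives the vehicle as 2% DMSO, and the labels of the extract libraries give none. The sample names of both extracts begin with the same number, read here as a set, whereas those of vehicle begin with another. A comparison with vehicle therefore cannot be told apart from a difference between sets or in DMSO, while both sides of the comparison between the extracts carry the same number.

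Licorice root is known for the saponin glycyrrhizin and for many flavonoids, and ginseng root for the ginsenosides. The composition of these 2 extracts is not given in the sources used here. Liver cells meet plant compounds with 2 well-studied sensing systems. The aryl hydrocarbon receptor (AhR) binds flat aromatic ligands, pairs with ARNT and switches on CYP1A1 and other oxidation enzymes through response elements that hold the letters GCGTG. NRF2 is released from its inhibitor KEAP1 by electrophiles and oxidants, and switches on genes of glutathione synthesis, quinone reduction and thioredoxin recycling through antioxidant response elements. In hepatocytes these systems stand beside the programs for plasma proteins, cholesterol, bile acids and iron.

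RNA abundance is given in CPM, counts scaled to the library total after TMM adjustment, with the mean ± SD of 3 libraries. Differences are given as log2 of licorice over ginseng ± SE. The 6 libraries at 500 µg/mL held 24.2 M to 28.7 M counts, and 3 counts in one of them stood for 0.104 to 0.124 CPM before that adjustment. Mitochondrially encoded genes took 8.9% to 11.6% of the counts with licorice and 9.41% to 11.9% with ginseng. The HepG2 label fits the markers: ALB, AFP, APOB and 11 other defining genes were all tested and summed to 58006 to 59764 CPM with licorice and 73995 to 75181 CPM with ginseng. Of the blood markers PTPRC, CD3E and MS4A1 had no count in any of the 6 libraries, while CD14, LYZ, HBA1 and CD68 reached 1 CPM in at least 1 and the list summed to 1526 to 1715 CPM with licorice and 1461 to 1856 CPM with ginseng. Of the fibroblast and stellate markers DCN had no count, while ACTA2, RGS5 and TAGLN reached 1 CPM. No label says whether the 3 libraries of a group stand for separate cultures. The p-values therefore cover only the spread of libraries within groups, pooled over all 20 groups of the series, and that spread may be technical. In bulk RNA, fewer cells of a kind and less RNA per cell cannot be told apart.

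At 500 µg/mL the extracts differed in 3601 of the 16093 genes tested, or 22.4% (edgeR quasi-likelihood test, Benjamini-Hochberg adjusted p under 0.05). Of these, 1880 were higher with licorice (11.7% of the genes tested) and 1721 lower (10.7%). Most differences were small, with a median size of 1.2-fold among the genes called. Only 199 genes differed 2-fold or more, 75 higher and 124 lower with licorice, and in 193 of them the libraries of the extracts did not overlap. Of all genes tested, 36.3% had libraries that did not overlap. The 15 largest rises with licorice included 7 enzymes that oxidize, reduce or conjugate small molecules, CYP1A1, ALDH3A1, AKR1B10, CYP24A1, AKR1C2, NQO1 and UGT1A1. The 15 largest falls included the receptor PDGFRB, the transporter SLC6A12, the Wnt inhibitor DKK1 and the bile acid enzymes CYP7A1 and AKR1D1.

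The promoters of CYP1A1, the largest rise, and of GCLM, one of the smaller of the 15 largest rises, are shown as examples that hold the letters of the response elements. The windows of others among the 15, such as NQO1, HAMP and AKR1C2, held neither. Both sequences are the 250 bases before the gene's start in RefSeq (GRCh38.p14), written 5′ to 3′ on the strand of the gene. CYP1A1 is at chr15:74725529-74725778, minus strand, and the capitals mark GCGTG with its first base at position -57. GCLM is at chr1:93909431-93909680, minus strand, where the capitals mark GCGTG read on the opposite strand, at positions -202 and -159, and the antioxidant element letters TGACNNNGC, also on the opposite strand, at position -34. No 2 of these matches overlap.
CYP1A1: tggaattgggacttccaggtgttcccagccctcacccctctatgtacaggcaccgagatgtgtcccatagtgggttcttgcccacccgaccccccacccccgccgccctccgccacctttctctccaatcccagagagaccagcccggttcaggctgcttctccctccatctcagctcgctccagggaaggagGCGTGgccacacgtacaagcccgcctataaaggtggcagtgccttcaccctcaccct
GCLM: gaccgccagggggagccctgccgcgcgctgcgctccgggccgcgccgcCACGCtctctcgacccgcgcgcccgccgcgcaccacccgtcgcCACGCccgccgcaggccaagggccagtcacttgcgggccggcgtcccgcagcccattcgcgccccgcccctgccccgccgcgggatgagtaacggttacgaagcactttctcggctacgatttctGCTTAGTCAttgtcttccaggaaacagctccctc
Searched on both strands, GCGTG was in the windows of 8 of the 12 AhR battery genes that RefSeq matched, against 31.9% of all 27305 windows and 44.6% of the windows of genes tested. TGACNNNGC was in 1 of the 12, against 11% of all windows. Among the 15 largest rises 11 had a window, of which 5 held GCGTG and 1 held TGACNNNGC. Among the 15 largest falls 12 had a window, of which 4 held GCGTG and 2 held TGACNNNGC. A match in such a window is a description and not a site.

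CYP1A1, the classic AhR target that oxidizes polycyclic aromatic compounds (ENSG00000140465, chromosome 15, 74719542 to 74725610), had the largest rise among the genes of at least 5 CPM. Its level was 702, 720 and 720 CPM in the 3 licorice libraries and 16.1, 18.3 and 16.1 CPM in the ginseng libraries. The groups were far apart, and vehicle averaged 12.7 ± 1.14 CPM, nearer to ginseng. The difference was 42.4-fold (log2 5.41 ± 0.077, adjusted p = 5.65e-46, edgeR). At lower doses it was smaller but still called. Licorice and ginseng averaged 19.9 and 12.6 CPM at 20 µg/mL (log2 0.67, adjusted p = 7.66e-06, edgeR), and 80.3 and 12.5 CPM at 100 µg/mL (log2 2.68, adjusted p = 1.92e-31, edgeR).

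Among the 15 tested members of the AhR battery, 10 were higher with licorice at 500 µg/mL and 1 was lower, with a median log2 difference of 0.35. The median over all genes tested was 0 at each dose. List counts at 500 µg/mL are to be read beside 11.7% of all genes tested higher with licorice and 10.7% lower. LRAT, ADGRF1, ALDH1A3, XDH and FMO1 were on the list and too low to test. ALDH3A1, an aldehyde dehydrogenase, had 11.5, 11.2 and 11.5 CPM with licorice and 2.04, 2.29 and 2.06 CPM with ginseng, a 5.32-fold difference (log2 2.41 ± 0.139). AHRR, the repressor that AhR itself induces, had 60, 49 and 55 counts with licorice and 13, 19 and 13 with ginseng (log2 1.81 ± 0.25). The libraries of both genes were apart at 500 µg/mL, which for ALDH3A1 was a condition of being among the 15 largest rises. At 100 µg/mL ALDH3A1 was called (log2 1.75) and AHRR was not (log2 -0.06). Neither was called at 20 µg/mL (log2 0.51 and -0.17).

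CYP1A2, the neighbour of CYP1A1 and a caffeine-oxidizing enzyme, had 60, 54 and 66 counts with licorice at 500 µg/mL and 3, 0 and 1 with ginseng. At 100 µg/mL it had 17, 7 and 12 counts with licorice and none in the 3 ginseng libraries. It thus lay at or near the limit of detection in every ginseng library, and no fold is given. CYP1B1, the third enzyme of the family, stayed very low, with 13, 12 and 22 counts with licorice and 3, 4 and 3 with ginseng (log2 2.15 ± 0.533, adjusted p = 0.00188, edgeR). At 100 µg/mL CYP1B1 had 1, 2 and 5 counts with licorice and 2, 6 and 3 with ginseng, and was not called. CYP1A1 and CYP1A2 are similar in sequence, so reads they share were divided between them by the counting program.

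The receptor genes themselves moved little. AHR had 40.4, 38.8 and 36.4 CPM with licorice and 36, 28.5 and 32.6 CPM with ginseng (log2 0.25 ± 0.0927, adjusted p = 0.0413, edgeR). That call was lost without ginseng library 2 (adjusted p = 0.277, edgeR), without ginseng library 3 (0.0762), without licorice library 1 (0.148), without licorice library 2 (0.0853) and with the 18 licorice and ginseng libraries only (0.124). ARNT, the partner of AhR, was the one member lower with licorice (log2 -0.26). TIPARP, another AhR target and feedback inhibitor, averaged 24.1 ± 0.435 CPM with licorice and 22.8 ± 1.21 CPM with ginseng. It did not pass the test, and its interval of the log2 difference ran from -0.04 to 0.19.

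**Figure D1:**
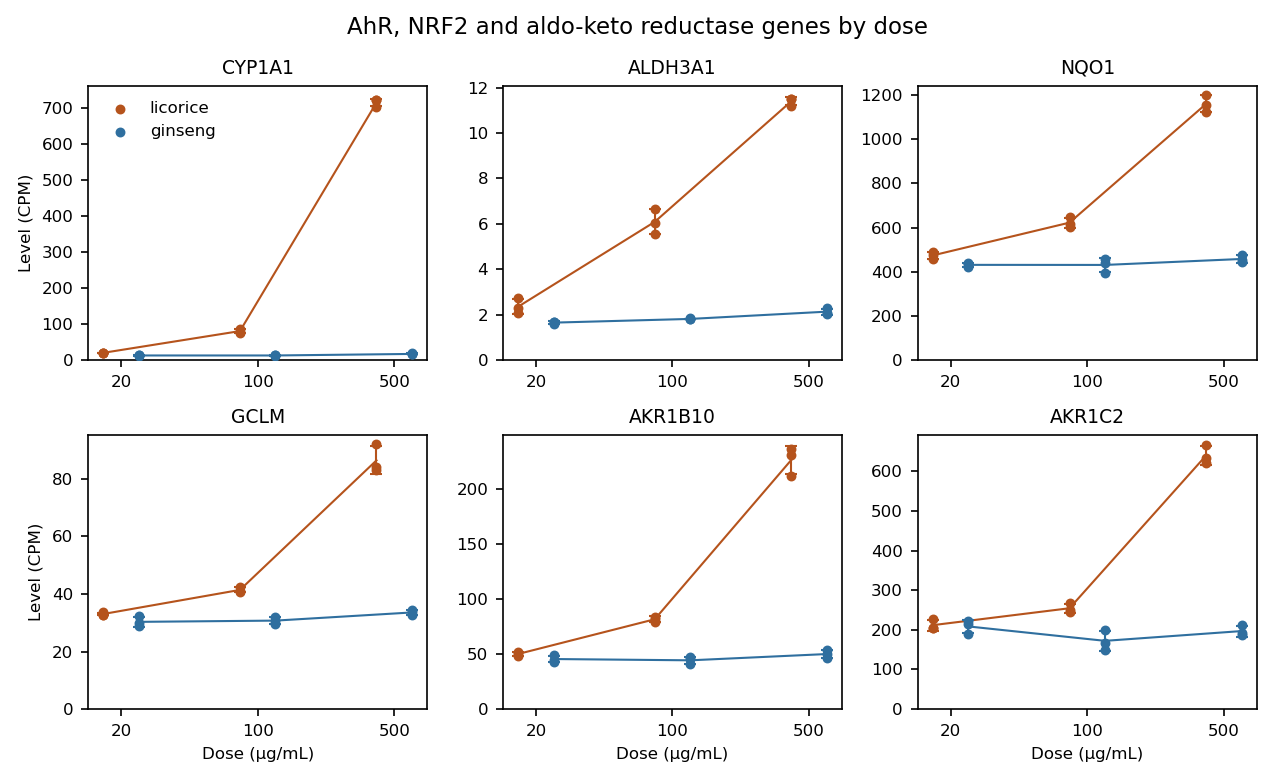
Level in CPM (vertical axes, linear and starting at 0) of 6 genes against extract dose in µg/mL, with licorice (orange) left of ginseng (blue); points are libraries, bars the mean ± SD of 3, and lines join means. CYP1A1 averaged 714 CPM with licorice and 16.8 CPM with ginseng at 500 µg/mL, and in all 6 panels the licorice points at that dose lie above every ginseng point. That was a condition of being among the 15 largest rises, to which all 6 genes belong.

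NRF2 targets were higher with licorice as a group. Of 27 tested members 23 rose and 0 fell, with a median log2 difference of 0.59, and ME1 was not tested. NQO1, a quinone reductase that also belongs to the AhR battery, had 1155, 1124 and 1201 CPM with licorice and 443, 476 and 454 CPM with ginseng. Vehicle averaged 410 ± 17.2 CPM, nearer to ginseng, and licorice was 2.53-fold above ginseng (log2 1.34 ± 0.0447, adjusted p = 2.11e-29, edgeR).

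Glutathione synthesis was represented by GCLM and GCLC, the modifier and catalytic subunits of its rate-limiting enzyme. GCLM had 83.1, 84.1 and 92 CPM with licorice and 32.6, 33.7 and 34.4 CPM with ginseng (log2 1.36 ± 0.0512, adjusted p = 3.54e-27, edgeR). GCLC had 127, 126 and 128 CPM with licorice and 82, 80.7 and 79.3 CPM with ginseng, a smaller difference of 1.58-fold. Neither gene's libraries overlapped, which for GCLM was a condition of being among the 15 largest rises. SLC7A11, which imports the cystine used for glutathione, averaged 63.2 ± 2.45 CPM with licorice and 32.3 ± 1.39 CPM with ginseng (log2 0.97 ± 0.0767).

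The thioredoxin branch moved the same way. TXNRD1, thioredoxin reductase, averaged 363 ± 8.97 CPM with licorice and 161 ± 2.21 CPM with ginseng (log2 1.18 ± 0.0399), and SRXN1, sulfiredoxin, averaged 210 ± 5.07 CPM with licorice and 94 ± 1.74 CPM with ginseng (log2 1.16 ± 0.0491). The efflux pump ABCC3 rose 1.85-fold with licorice. HMOX1, heme oxygenase, differs from these genes in size: it had 90.2, 92.6 and 90.6 CPM with licorice and 83.7, 84.2 and 81 CPM with ginseng. Its libraries did not overlap, but it did not pass the test (log2 0.14 ± 0.0522, adjusted p = 0.0544, edgeR). It did pass with the replicate number as a block in the 18 licorice and ginseng libraries (adjusted p = 0.0452, edgeR), with DESeq2 size factors in edgeR (0.0482), with only the 6 libraries compared (0.025) and with the DESeq2 Wald test (0.042). PRDX1, TRIM16 and TRIM16L, the other members that did not pass, had log2 differences of 0.16, -0.14 and -0.27 and were picked out after their values were seen.

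Aldo-keto reductases, which reduce aldehydes and steroids, split by gene. Of 9 tested, 4 rose and 1 fell with licorice. AKR1B10 had 212, 231 and 236 CPM with licorice and 46.2, 50.1 and 53.7 CPM with ginseng (log2 2.18 ± 0.0578, adjusted p = 1.68e-33, edgeR). AKR1C2 had 621, 634 and 666 CPM with licorice and 187, 213 and 191 CPM with ginseng, and AKR1C1 averaged 805 ± 48.2 CPM with licorice and 364 ± 17.2 CPM with ginseng. AKR1D1, which makes the reduced ring of bile acids, went the other way, with 14.2 ± 0.876 CPM with licorice and 29 ± 0.445 CPM with ginseng (log2 -1.03 ± 0.0616). The AKR1C genes are near copies of each other, so their separate values are uncertain.

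Drug-metabolizing genes of the PXR and CAR receptors did not share a direction, with 4 of 14 tested higher and 4 lower with licorice. The shares of all genes tested were 11.7% and 10.7%. UGT1A1, which conjugates bilirubin, had 38.3, 40.6 and 36.8 CPM with licorice and 15.1, 16.1 and 14.5 CPM with ginseng (log2 1.34 ± 0.0629, adjusted p = 5.15e-23, edgeR). The bile pigment pump ABCC2 rose with licorice (log2 0.45) and CYP3A7 fell (log2 -0.38). CYP3A4, the main drug oxidase of adult liver, was near the detection limit at 0.296 ± 0.169 CPM with licorice and 0.324 ± 0.147 CPM with ginseng. CYP2B6 was too low to test.

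Among conjugation genes 4 of 14 rose and 5 fell with licorice, against 11.7% and 10.7% of all genes tested. UGT1A1, UGT1A3, SULT1A2 and SULT1A1 rose, while UGT2B4 fell to 25.3 ± 0.911 CPM with licorice, against 47.8 ± 0.933 CPM with ginseng (log2 -0.92 ± 0.0472). UGT2B11, UGT2B10, UGT2B7 and SULT1C2 fell too. The UGT1A genes share exons and the UGT2B and SULT1A genes are close copies, so single members of each family are uncertain.

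Among steroid genes 4 of 19 rose and 3 fell with licorice, against 11.7% and 10.7% of all genes tested. HSD11B2, the enzyme that inactivates cortisol and that glycyrrhizin metabolites are known to inhibit, had 15, 12.9 and 13 CPM with licorice and 15.1, 18.8 and 15.6 CPM with ginseng. Its difference was small (log2 -0.27 ± 0.0987, adjusted p = 0.0391, edgeR). The call was lost without ginseng library 2 (adjusted p = 0.318, edgeR), licorice library 2 (0.152) or licorice library 3 (0.147). Of 13 glucocorticoid receptor targets, 6 rose and 2 fell. FKBP5 averaged 155 ± 3.54 CPM with licorice and 130 ± 3.28 CPM with ginseng (log2 0.26 ± 0.0384), while SGK1, a kinase that raises sodium uptake, had 13.9, 13.1 and 15.4 CPM with licorice and 28.1, 29.4 and 27 CPM with ginseng (log2 -0.99 ± 0.0765).

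HAMP and 2 ID genes were also higher with licorice, and their ginseng means lay below vehicle. HAMP encodes hepcidin, the hormone that lowers iron export, and is switched on by BMP signals through SMAD proteins. It had 8.05, 9.41 and 8.79 CPM with licorice and 0.694, 1.34 and 0.912 CPM with ginseng, from 232, 230 and 234 counts with licorice and 18, 35 and 23 with ginseng. The difference was called (log2 3.15 ± 0.198, adjusted p = 4.05e-18, edgeR). Vehicle averaged 7.06 ± 0.168 CPM, near the licorice level.

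Against vehicle, HAMP had a log2 difference of 0.31 with licorice at 500 µg/mL, which did not pass (adjusted p = 0.0954, edgeR), and of -2.84 with ginseng (adjusted p = 1.57e-14, edgeR). Across doses, licorice and ginseng averaged 4.6 and 5.22 CPM at 20 µg/mL and 5.79 and 2.96 CPM at 100 µg/mL. The HAMP libraries of both extracts at 20 µg/mL, at 4.14 to 5.26 CPM, lay below every vehicle library (6.9 to 7.23 CPM). The difference between the extracts was called at 100 µg/mL (log2 0.96, adjusted p = 0.000247, edgeR) and not at 20 µg/mL (log2 -0.18, adjusted p = 0.791, edgeR).

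ID3, an inhibitor of DNA-binding factors and a SMAD target, had 21.5, 22.9 and 23.4 CPM with licorice, 8.32, 8.56 and 7.62 CPM with ginseng and an average of 16 CPM in vehicle. ID1, its close relative, had 145, 153 and 164 CPM with licorice, 76.1, 85.5 and 82.9 CPM with ginseng and an average of 101 CPM in vehicle. In both genes the vehicle mean lay between the extracts at 500 µg/mL. At 20 µg/mL ID1 had 122, 152 and 154 CPM with licorice and 149, 145 and 145 CPM with ginseng. ID3 had 19.6, 18.5 and 20.1 CPM with licorice at that dose and 19.2, 18.4 and 19 CPM with ginseng. All of these libraries at 20 µg/mL lay above every vehicle library. In the iron and heme list 8 of 19 rose and 4 fell with licorice, with a median of 0.14. TMPRSS6, a protease that restrains hepcidin, fell to 2.65 ± 0.162 CPM with licorice, against 4.4 ± 0.658 CPM with ginseng. The ferritin chains FTL and FTH1, which are NRF2 targets too, rose by 0.48 and 0.37 on the log2 scale. RGMB, a BMP co-receptor, averaged 25.8 ± 0.575 CPM with licorice and 9.87 ± 0.573 CPM with ginseng.

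**Figure D2:**
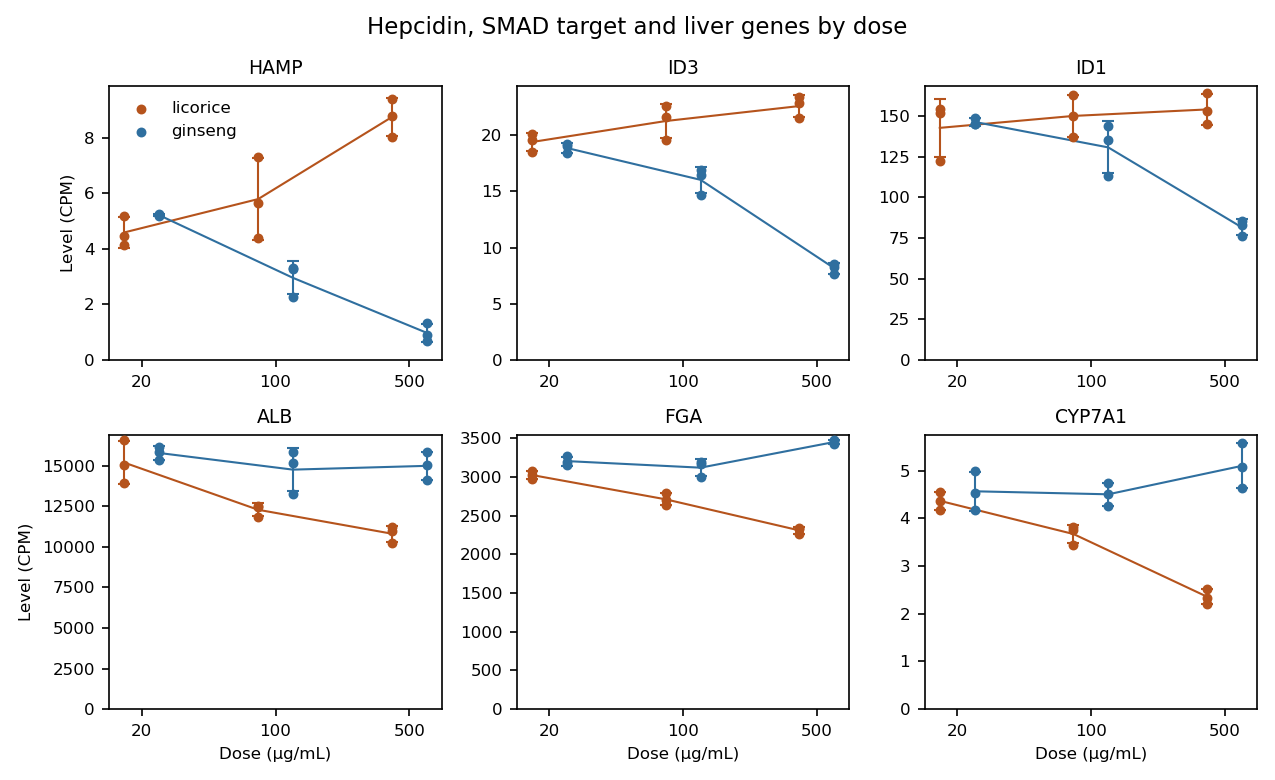
Level in CPM (vertical axes, linear and starting at 0) of 6 liver and SMAD target genes against extract dose in µg/mL, with licorice (orange) left of ginseng (blue); points are libraries, bars the mean ± SD of 3, and lines join means. HAMP averaged 8.75 CPM with licorice and 0.981 CPM with ginseng at 500 µg/mL, and ALB, FGA and CYP7A1 were lower with licorice at that dose.

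Genes of secreted liver proteins were lower with licorice. Of 16 hepatocyte plasma protein genes 12 fell and 1 rose, with a median log2 difference of -0.47. ALB, albumin, had 10252, 11220 and 10969 CPM with licorice and 14098, 15852 and 15036 CPM with ginseng (log2 -0.47 ± 0.0544, adjusted p = 1.43e-09, edgeR). AHSG, fetuin A, averaged 1523 ± 46.1 CPM with licorice and 2260 ± 141 CPM with ginseng, and GC, the vitamin D carrier, 1.06 ± 0.191 CPM with licorice and 2.16 ± 0.46 CPM with ginseng. AMBP, picked out after its values were seen, was the one that rose (log2 0.25). Several of these genes are the markers by which HepG2 cells were recognized above, 9 of 14 of which fell and 1 of which, HNF4A, rose.

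In the coagulation and complement list 23 of 30 fell and 1 rose, and the median was -0.29. FGA, the fibrinogen alpha chain, had 2257, 2327 and 2343 CPM with licorice and 3420, 3474 and 3462 CPM with ginseng (log2 -0.58 ± 0.0356, adjusted p = 1.67e-18, edgeR). FGB and FGG, the other chains, fell by 0.53 and 0.57 on the log2 scale. F11, the one that rose, had a log2 difference of 0.18 and was picked out after its values were seen. Of 17 acute phase genes 10 fell and 1 rose, with a median of -0.40. The one that rose was IL6R, the interleukin 6 receptor, at 42.4 ± 0.924 CPM with licorice and 27.1 ± 1.11 CPM with ginseng. HPX, hemopexin, fell to 21 ± 2.39 CPM with licorice, against 37 ± 3.26 CPM with ginseng.

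Vehicle lay between the extracts for FGA, at an average of 2863 CPM, and the gene's log2 difference from vehicle was -0.31 with licorice and 0.27 with ginseng. Against vehicle, 11 of the 16 plasma protein genes fell and 1 rose with licorice, and 0 fell and 5 rose with ginseng. Over all genes tested, 16.7% rose and 15.7% fell against vehicle with licorice (32.4% in all). With ginseng 4.66% rose and 5.58% fell (10.2% in all). Both were measured against the same 3 vehicle libraries.

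Of 23 liver transcription factor genes 10 fell and 2 rose with licorice. FOXA3 averaged 24.8 ± 0.534 CPM with licorice and 35.7 ± 2.05 CPM with ginseng, while HNF4A, a master regulator of hepatocyte genes, was slightly higher (log2 0.16). Of 18 apolipoprotein and lipoprotein assembly genes 7 fell and 1 rose. APOC1 was the one that rose, with 406, 454 and 480 CPM with licorice and 236, 301 and 268 CPM with ginseng (log2 0.73 ± 0.0892). APOC3 and APOA5, which set plasma triglyceride, fell by 0.62 and 0.59 on the log2 scale.

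Cholesterol synthesis genes were lower with licorice, by small amounts. Of 24 tested 18 fell and 1 rose, with a median log2 difference of -0.19, and INSIG1 was not tested. HMGCS1, an early enzyme of the pathway, had 424, 431 and 433 CPM with licorice and 577, 586 and 572 CPM with ginseng (log2 -0.43 ± 0.0329, adjusted p = 4.27e-15, edgeR). Its libraries were apart between the extracts.

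Fatty acid and triglyceride synthesis genes fell in 9 of 21 cases and rose in 3. FASN and SREBF1 did not pass the test: FASN averaged 1749 ± 20.1 CPM with licorice and 1738 ± 64.1 CPM with ginseng, with an interval of the log2 difference from -0.12 to 0.14. DGAT2, the last step of triglyceride synthesis, fell to 44.5 ± 1.34 CPM with licorice, against 63.1 ± 2.55 CPM with ginseng. Of 21 PPAR alpha and fatty acid oxidation genes 4 rose and 6 fell. CPT1A, which carries fatty acids into mitochondria, rose 1.44-fold.

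Bile acid genes fell in 7 of 15 cases and rose in 2, with a median of -0.29. CYP7A1, which catalyses the slow first step from cholesterol to bile acids, had 2.53, 2.21 and 2.33 CPM with licorice and 5.09, 5.58 and 4.64 CPM with ginseng (log2 -1.11 ± 0.124, adjusted p = 5.41e-10, edgeR). BAAT, which joins bile acids to amino acids, averaged 5.98 ± 0.586 CPM with licorice and 10.8 ± 0.477 CPM with ginseng. The bile acid receptor NR1H4 and its target NR0B2 fell by 0.43 and 0.36 on the log2 scale. The 2 that rose were the pumps ABCC3 and ABCC2, which other lists also hold.

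**Figure D3:**
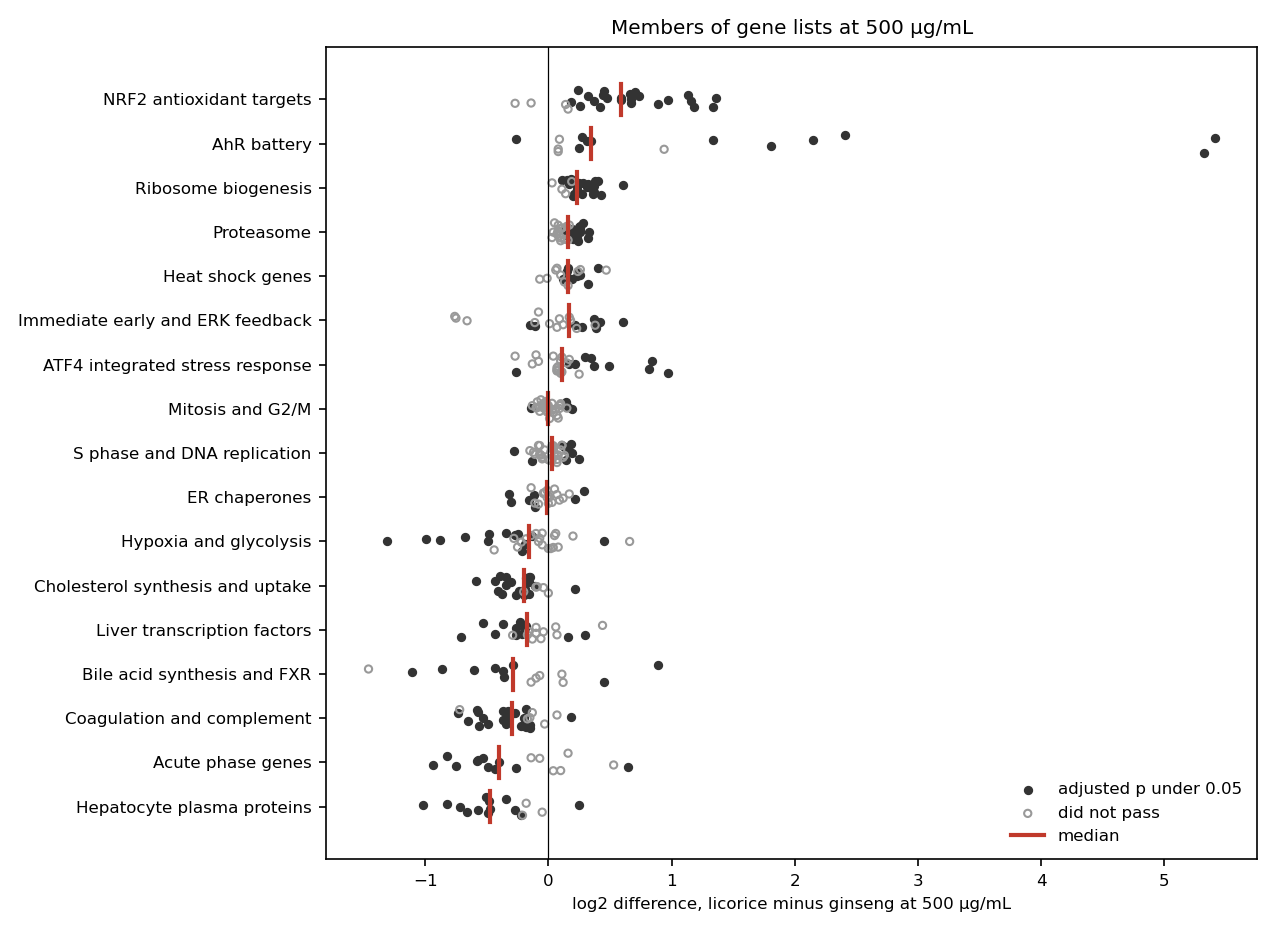
log2 difference of licorice over ginseng at 500 µg/mL (horizontal axis) for the tested members of 17 gene lists (rows); filled points passed the edgeR test at an adjusted p under 0.05, open points did not, and red bars are medians. NRF2 targets have the highest median of these lists, 0.59, and hepatocyte plasma proteins the lowest, -0.47; the AhR point near CYP1A1 is CYP1A2, whose fitted value depends on ginseng counts of 3 or fewer.

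Several large groups of housekeeping genes moved by small amounts. Ribosome biogenesis genes rose with licorice in 24 of 28 cases and fell in 0, with a median log2 difference of 0.23. MYC, a driver of that program, had 197, 191 and 193 CPM with licorice and 132, 123 and 126 CPM with ginseng (log2 0.61 ± 0.0543, adjusted p = 7.97e-13, edgeR). DDX21, a nucleolar helicase, averaged 348 ± 9.69 CPM with licorice and 264 ± 8.93 CPM with ginseng. Proteasome genes rose in 18 of 34 cases and fell in 0, with a median of 0.16, as in PSMD12 at 131 ± 1.23 CPM with licorice and 104 ± 2.82 CPM with ginseng. Heat shock genes rose in 11 of 21 cases and fell in 0, led among the called members by FKBP4 (log2 0.40 ± 0.0357).

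Stress targets of ATF4, a factor made when translation is slowed, rose in 9 of 27 cases and fell in 1. SLC7A11, GDF15, ALDH1L2 and ASNS led, of which SLC7A11 is also on the NRF2 list and GDF15 on the p53 list. GDF15, a secreted stress hormone, had 376, 366 and 356 CPM with licorice and 202, 215 and 197 CPM with ginseng. DDIT3, which encodes the death-linked factor CHOP, averaged 9.32 ± 0.299 CPM with licorice and 10.2 ± 0.914 CPM with ginseng. It did not pass the test (log2 -0.13, interval -0.34 to 0.08). Of 24 ER chaperone genes 2 rose and 5 fell, with a median of -0.01.

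Genes of glycolysis and the hypoxia response were lower with licorice in 12 of 32 cases and higher in 1, with a median of -0.16. Against vehicle, which is of another set, 10 of the 32 rose and 2 fell with licorice, and 17 rose and 0 fell with ginseng. Over all genes tested 16.7% rose and 15.7% fell against vehicle with licorice, and 4.66% and 5.58% with ginseng. CA9, a carbonic anhydrase, had 1.46, 1.51 and 1.01 CPM with licorice and 3.47, 4.01 and 2.42 CPM with ginseng (log2 -1.31 ± 0.26). PFKFB4, which tunes glycolysis, had 18.2, 17.3 and 21.2 CPM with licorice and 36, 35.3 and 33.1 CPM with ginseng. PFKFB3, its relative, averaged 4.17 ± 0.845 CPM with licorice and 8.28 ± 0.942 CPM with ginseng (adjusted p = 0.0235, edgeR). Its call was lost without ginseng library 2 (adjusted p = 0.0896, edgeR), licorice library 1 (0.0973) or licorice library 2 (0.0789).

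FOXO and gluconeogenesis genes rose in 4 of 21 cases and fell in 7 with licorice. IGFBP1, a secreted binder of insulin-like growth factors, had 310, 368 and 382 CPM with licorice and 184, 247 and 191 CPM with ginseng (log2 0.77 ± 0.167). At 20 µg/mL IGFBP1 had 293, 404 and 329 CPM with licorice and 313, 335 and 310 CPM with ginseng. Its vehicle libraries had 113, 125 and 149 CPM. PCK1, the gatekeeper of gluconeogenesis, went the other way, with 6.67, 7.4 and 7.36 CPM with licorice and 12.9, 12.8 and 13.9 CPM with ginseng (log2 -0.89 ± 0.111). The libraries of both genes were apart.

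Cell cycle genes had medians close to that of all genes tested, which was 0. Of 32 mitosis genes 3 rose and 1 fell, with a median of 0. Of 36 S phase genes 6 rose and 2 fell, with a median of 0.03, where 11.7% of all genes tested rose and 10.7% fell. MKI67, a proliferation marker, had 351, 331 and 336 CPM with licorice and 371, 312 and 329 CPM with ginseng. The groups overlapped, and the interval of the log2 difference ran from -0.17 to 0.19. None of the 13 mitochondrially encoded genes passed, and their log2 differences ran from -0.23 for MT-ND6 to 0.17 for MT-ATP8.

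Other large single-gene differences fell outside these programs. SLC16A6, a monocarboxylate transporter, had 50.7, 47.7 and 46.4 CPM with licorice and 9.75, 9.59 and 10.2 CPM with ginseng (log2 2.30 ± 0.0674). SOS1, which activates RAS, had 302, 282 and 294 CPM with licorice and 86.5, 78.3 and 82.8 CPM with ginseng (log2 1.83 ± 0.0552). CYP24A1, which degrades active vitamin D, had 31.5, 32.4 and 32 CPM with licorice and 9.25, 9.06 and 8.73 CPM with ginseng (log2 1.83 ± 0.0754). All 3 are among the 15 largest rises, which were picked from genes whose libraries did not overlap. In these 3 genes vehicle, at 10.5, 84 and 12 CPM, lay nearer to ginseng than to licorice. AQP3, a water and glycerol channel, and CPLX2, a protein of vesicle fusion, rose 4.22-fold and 2.88-fold.

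Among the falls, PDGFRB, a growth factor receptor, had 2.29, 2.41 and 2.59 CPM with licorice and 6.4, 7.07 and 5.95 CPM with ginseng (log2 -1.41 ± 0.113, adjusted p = 1.95e-14, edgeR). DKK1, a secreted Wnt inhibitor, had 48.9, 53.4 and 53.8 CPM with licorice and 112, 133 and 118 CPM with ginseng (log2 -1.22 ± 0.0757). SLC6A12, a betaine transporter, had 5.03, 5.23 and 4.99 CPM with licorice and 14.5, 13.7 and 12.7 CPM with ginseng. SCN1A, a sodium channel gene, averaged 40.6 ± 0.816 CPM with licorice and 89.1 ± 2.6 CPM with ginseng. No overlap of libraries was a condition of being among the 15 largest falls, to which all 4 belong. Their vehicle means, 7.4, 125, 13.1 and 86 CPM, lay near ginseng. TUBB1, a tubulin of platelets, fell by 1.73 on the log2 scale with the widest error of these genes (SE 0.302). ACSL3P1 is a pseudogene copy of ACSL3, so its fall of 1.11 is uncertain.

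Of 19 matrix and growth factor receptor genes 7 fell with licorice and 0 rose. FN1, fibronectin, averaged 7924 ± 185 CPM with licorice and 10337 ± 146 CPM with ginseng. In the fibroblast and stellate marker list 2 of the 4 tested genes, ACTA2 and TAGLN, fell too (log2 -0.42 and -0.52), and the list summed to 67 to 72.5 CPM with licorice and 93.9 to 96 CPM with ginseng. DCN of that list was at 0 in all 6 libraries. The part of these markers in the matrix result was not tested.

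The same contrast at lower doses used other libraries. At 100 µg/mL 606 genes were called, or 3.77% of those tested, 298 higher with licorice (1.85%) and 308 lower (1.91%), and 17 of them reached 2-fold. The count of 606 was 914 without ginseng library 1, 245 without ginseng library 2, 322 without ginseng library 3, 265 without licorice library 1 and 360 without licorice library 2. It was 389 in a fit of the 18 licorice and ginseng libraries and 62 in a fit of only the 6 libraries compared. At 20 µg/mL 3 genes were called, or 0.0186%, of which 2 were higher with licorice (0.0124%) and 1 lower (0.00621%), while 1273 had an unadjusted p under 0.05. The 3 were CYP1A1, C9orf64 and NRBP2, the last 2 picked out after their values were seen. CYP1A1 was called under all 14 alternatives run at that dose, C9orf64 under 6 and NRBP2 under 7. Without ginseng library 1, ginseng library 3 or licorice library 1, only CYP1A1 of these 3 was called. C9orf64 was higher with licorice at 20 µg/mL (log2 0.18, adjusted p = 0.0257, edgeR) and did not pass at 500 µg/mL (log2 -0.03, adjusted p = 0.657, edgeR). NRBP2 was lower with licorice at 20 µg/mL (log2 -0.32) and at 500 µg/mL (log2 -0.49).

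Of the 606 genes called at 100 µg/mL, 518 were also called at 500 µg/mL. These are 85.5% of the calls at 100 µg/mL and 14.4% of those at 500 µg/mL, and 517 of them had the same sign. Across the 10678 genes of at least 5 CPM, the log2 differences at 500 µg/mL had a Pearson r of 0.67 with those at 100 µg/mL and of 0.26 with those at 20 µg/mL. Genes are not independent replicates, and these values describe the libraries only.

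**Figure D4:**
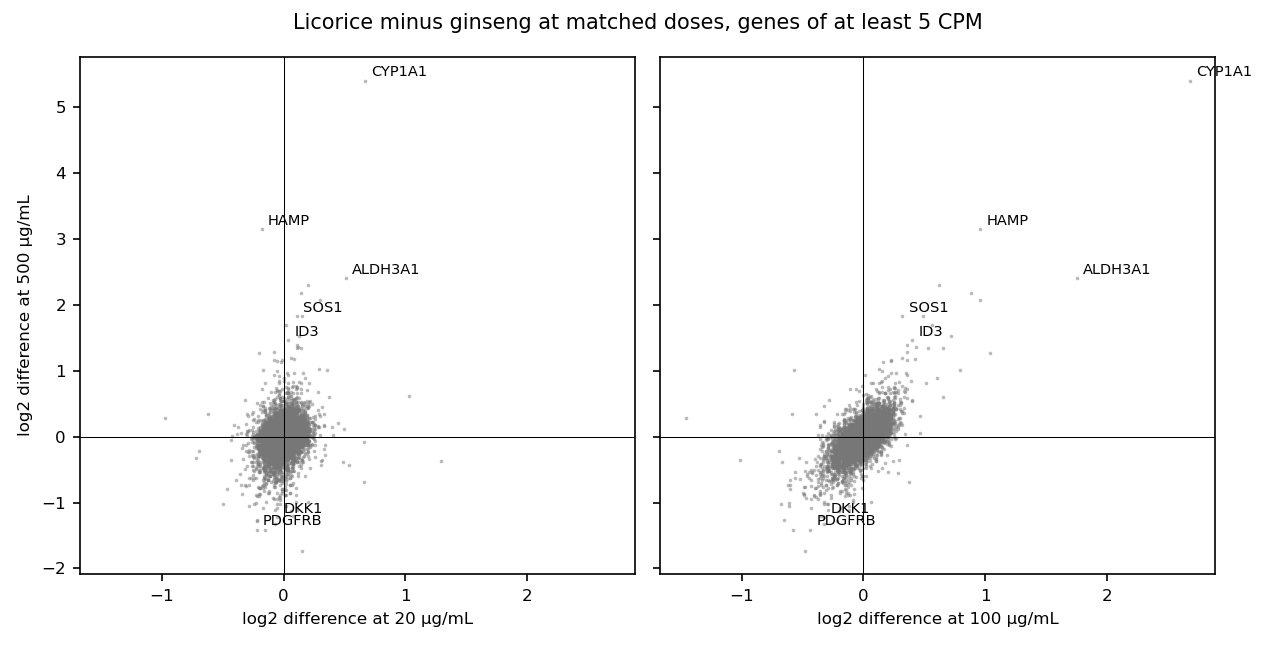
log2 difference of licorice over ginseng at 500 µg/mL (vertical axis) against that at 20 µg/mL (left) and 100 µg/mL (right), for 10678 genes of at least 5 CPM at 500 µg/mL; each point is a gene. The points lie closer to a rising line at 100 µg/mL (Pearson r 0.67) than at 20 µg/mL (0.26), and CYP1A1 stands apart in both panels.

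The difference between the extracts itself changed with dose in 1415 genes, 8.79% of those tested, when the difference at 20 µg/mL was subtracted from that at 500 µg/mL (edgeR, adjusted p under 0.05). All 15 largest rises and all 15 largest falls at 500 µg/mL were among them. The 15 rises were also all called at 100 µg/mL, with a median log2 of 0.62 there, of 1.83 at 500 µg/mL and of 0.13 at 20 µg/mL. Of the 15 falls 8 were called at 100 µg/mL, with a median of -0.32 there and of -1.13 at 500 µg/mL. Since these 30 genes were picked for their size at 500 µg/mL, their excess over 20 µg/mL is a description.

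Some lists had more calls at 500 than at 100 µg/mL, as did all genes tested (22.4% against 3.77%). Differences between lists were not tested. NRF2 targets had 0 of 27 called at 20 µg/mL and 14 of 27 higher with licorice at 100 µg/mL. Of all genes tested 1.85% were higher and 1.91% lower at 100 µg/mL, and 0.0124% and 0.00621% at 20 µg/mL. In 23 NRF2 targets the difference between 500 and 20 µg/mL was called and positive, against 4.41% of all genes tested. AhR battery genes had 1 higher of 15 at 20 µg/mL and 5 at 100 µg/mL, ribosome biogenesis genes had 0 and 12 of 28, and plasma protein genes had 0 and 9 of 16 lower. Cholesterol synthesis genes had 3 of 24 lower at 100 µg/mL and 18 at 500 µg/mL, where 10.7% of all genes tested were lower. Mitosis genes ran the other way, with 6 of 32 higher at 100 µg/mL and 3 at 500 µg/mL. Of all genes tested 1.85% and 11.7% were higher at those doses.

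**Figure D5:**
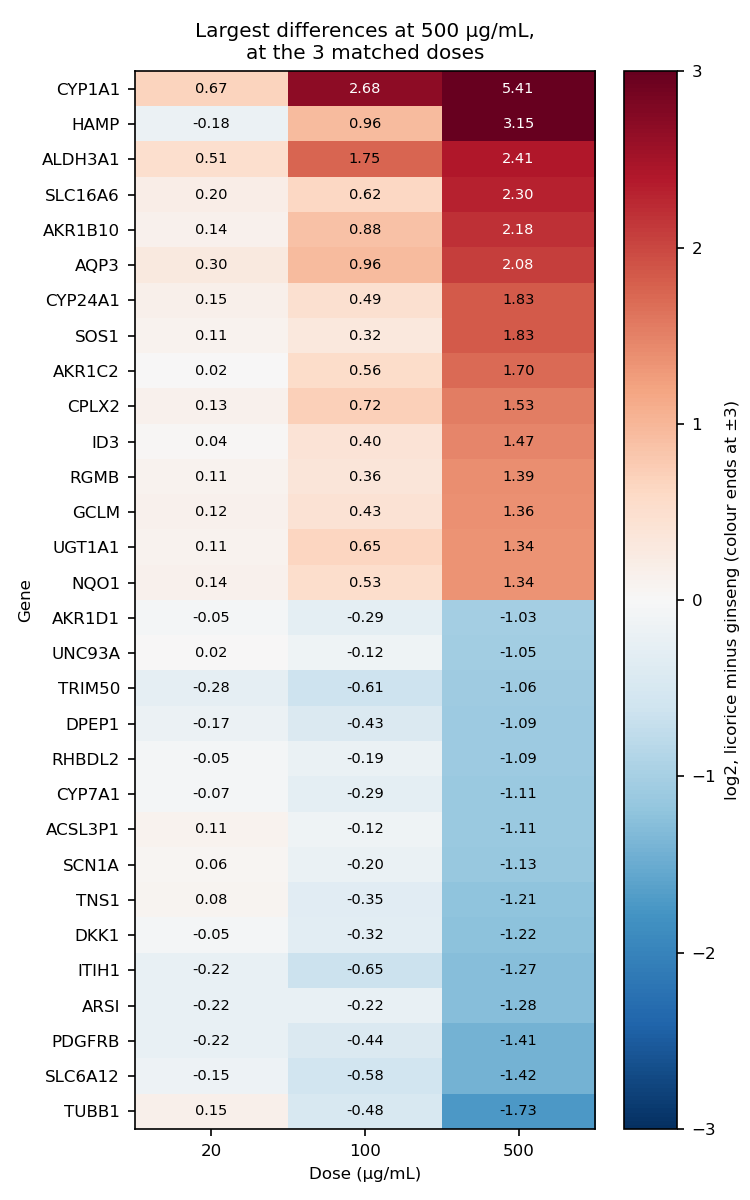
log2 difference of licorice over ginseng (colour and printed value) of the 15 largest rises and 15 largest falls at 500 µg/mL (rows) at 20, 100 and 500 µg/mL (columns); the colour scale ends at ±3. All 15 rises lie between 0.32 and 2.68 at 100 µg/mL and between -0.18 and 0.67 at 20 µg/mL.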

How the data were processed

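RNA of HepG2 cells was sequenced after 24 h with a directional kit as paired reads of 100 bases, per the labels. Per the submitters' processing notes the tools were FastQC 0.11.9, Trim Galore 0.6.5, STAR 2.7.3a and RSEM 1.3.3, with hg38. The deposited values are RSEM expected counts per gene, in which reads shared by similar genes are divided among them. Here they were rounded to whole counts. Of 270 columns in the table, 60 carry the sample names and were used. The other 210 were not used. All 60 libraries had 20.9 M to 33.4 M counts.

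One edgeR 4.0.16 model (with R 4.3.3 and limma 3.58.1) held a mean for each of the 20 groups, with TMM factors (0.926 to 1.03), filterByExpr (minimum count 10, minimum total 15) and glmQLFTest. Benjamini-Hochberg adjustment was over all 16093 genes, at 0.05. The SE is the size of the log2 difference divided by the square root of F, an approximation, and intervals are 95% on that SE. CPM use TMM library sizes, and fold changes a prior count of 0.125. Alternatives were DESeq2 1.42.0 size factors and Wald test, other filters, fewer libraries, the replicate block and leaving out each library.

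Same-numbered libraries deviated together at 500 µg/mL (r = 0.441, 0.229 and 0.15 over 10597 genes) and at 100 µg/mL (0.561, 0.161 and 0.102), but not at 20 µg/mL (-0.265, -0.0931 and 0.0339), so at the 2 higher doses, where every r was above 0.1, the numbers were taken to pair the samples. This rests on the data and not on the labels. The main model did not use the pairing, and printed p-values are from unpaired fits unless the replicate block is named. Averaged over the other licorice and ginseng groups, licorice library 3 at 500 µg/mL had r 0.133 with number 2 and -0.00772 with number 3. At 100 µg/mL licorice library 3 had 0.182 and 0.0403, and ginseng library 3 had 0.182 and 0.0375. The pairing is weak for numbers 2 and 3: at 100 µg/mL licorice library 2 had a higher r with ginseng library 3 (0.327), and licorice library 3 with ginseng library 2 (0.292).

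For the comparison at 500 µg/mL on simulated data, the test found 94 of 100 genes given a 1.5-fold change and 98 of 100 given a 2-fold change, and 4.95% of its calls were false. The changed genes were taken only from well-counted genes, and far fewer were changed than were called in the data. Noise was drawn separately for each library from the fitted spread, without deviations shared by same-numbered libraries. These shares therefore hold for that setting only. Replicate libraries differed from each other beyond sampling noise (chi-square per degree of freedom 2.85 to 22.7), so none was counted as a repeat.

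The comparison, the 43 lists and the genes were chosen with earlier results of these data known. Genes named are the 15 largest rises and 15 largest falls among called genes with a symbol, at least 5 CPM in a group and no overlap of libraries, up to 5 called members of at least 1 CPM per list, and a set of genes named whatever their value. Other members are given where they help describe a list, and were picked after their values were seen. Coordinates of genes are from GENCODE 29 on GRCh38. Some genes of the lists are counted but not reported by name here.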

Additional observations from a re-analysis of the deposited data

Results flagged for a closer look

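CYP3A5, a drug oxidase under PXR control, was the only one of the 518 genes called at both 500 and 100 µg/mL whose sign differed. It was picked out after its values were seen. At 500 µg/mL it had 8.68, 8.79 and 9.57 CPM with licorice and 7.79, 7.53 and 7.74 CPM with ginseng (log2 0.23 ± 0.0704, adjusted p = 0.0219, edgeR). At 100 µg/mL the log2 difference was -0.32 (adjusted p = 0.0214, edgeR), and at 20 µg/mL it was -0.21 (adjusted p = 0.582, edgeR). The difference at 500 minus that at 20 µg/mL was 0.44 (adjusted p = 0.00551, edgeR), and that between 500 and 100 µg/mL was not tested. The call at 500 µg/mL was lost without ginseng library 2 (adjusted p = 0.078, edgeR), without licorice library 3 (0.129), with the DESeq2 Wald test (0.0662), with no filter (0.191) and with only the 6 libraries compared (0.0602). CYP3A genes share reads.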

How the results depend on the processing

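The count of calls at 500 µg/mL stayed within 1.5 times of 3601 under every alternative run, and between 2878 and 3167 when 1 library was left out. For the difference between 500 and 20 µg/mL it ran from 1089 to 1304 when 1 library was left out. At 100 µg/mL the count was less stable: 606 became 389 with the 18 licorice and ginseng libraries, 62 with only the 6 libraries compared, and 245 to 914 when 1 library was left out. It was 914 without ginseng library 1, 245 without ginseng library 2, 322 without ginseng library 3, 265 without licorice library 1 and 360 without licorice library 2. At 20 µg/mL the count of 3 became 15 with the DESeq2 Wald test, 86 with no filter and 1 to 5 when 1 library was left out. The causes were not tested. With the replicate block the counts were 3884 (18 libraries) and 3698 (60 libraries) at 500 µg/mL, 698 and 664 at 100 µg/mL, and 2 and 3 at 20 µg/mL, where the numbers do not pair the libraries. With the block in the 18 libraries HMOX1 gained a call at 500 µg/mL (adjusted p = 0.0452, edgeR). Of 206 genes followed singly at 500 µg/mL, 0 changed sign between the main fit and an alternative where either fit called them. Sign changes of genes called in neither fit were not counted. A call was lost by 27 genes under at least 1 alternative, of which 11 under a setting other than leaving out a library. HMOX1 gained a call under 4. Genes under about 1 CPM, such as CYP1B1 and CYP3A4, rest on few counts.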

Other observations

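Smaller lists held single genes that stood apart. Their counts stand beside 11.7% of all genes tested that rose with licorice and 10.7% that fell. Transporters rose in 11 of 26 cases and fell in 5 with licorice, among them the amino acid carriers SLC1A5, SLC3A2 and SLC7A5 (log2 0.49, 0.37 and 0.35). Immediate early and ERK feedback genes rose in 8 of 23 cases and fell in 2, with SPRY4, an inhibitor of RAS signalling, at 52.3 ± 1.92 CPM with licorice and 39 ± 1.05 CPM with ginseng. Of 21 Wnt and YAP targets 4 rose and 7 fell. Of 34 autophagy and lysosome genes 6 rose and 4 fell; GLA, a lysosomal galactosidase, averaged 48.8 ± 0.448 CPM with licorice and 29.3 ± 1.07 CPM with ginseng. CD68, a lysosomal protein also used as a blood cell marker, rose by 0.48 on the log2 scale and was the only called gene of the 5 blood markers tested. Most of the summed level of that list came from LYZ.

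Metallothioneins and zinc genes were divided, with 3 of 11 higher and 4 lower with licorice. MT2A had 569, 490 and 512 CPM with licorice and 393, 388 and 347 CPM with ginseng, while MT1F and MT1X fell by 0.63 and 0.37 on the log2 scale; these genes share reads. Of 27 p53 targets 4 rose and 3 fell, with CDKN1A at 139 ± 2.21 CPM with licorice and 115 ± 4.47 CPM with ginseng. The p53 targets that rose include GDF15, which is also on the ATF4 list. NF-kB targets rose in 1 of 16 cases and fell in 4, and interferon-stimulated genes rose in 1 of 17 and fell in 2. Estrogen responsive genes rose in 3 of 12 and fell in 3, and LXR targets rose in 1 of 12 and fell in 1. IGF axis genes rose in 2 of 14 and fell in 1. The shares of all genes tested were 11.7% and 10.7%, and whether any of these lists departs from them was not tested. IGF2, a fetal growth factor of these cells, averaged 3029 ± 272 CPM with licorice and 3879 ± 372 CPM with ginseng. The 2 tested markers of other epithelial lines, PAX8 and ESR1, did not pass (log2 0.09 and -0.51).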
